A study of Mus musculus with 2 samples.

Results

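Hypomethylated promoter positions are cytosines of CpGs in a promoter of the authors' annotation that were largely methylated in wildtype (wt) mouse embryonic fibroblasts (MEFs) and largely unmethylated in MEFs without oestrogen receptor β (βerko MEFs). They were chosen by their measured methylation and depth, as positions with more than 80 % methylation in wt MEFs, less than 20 % in βerko MEFs and at least 5 reads in both libraries. In all, 1637 positions were found, of 826937 covered in both libraries. They made up 28.3 % of the 5787 positions that met the same thresholds and depth anywhere in the genome, which were 0.7 % of the covered positions. Since the values of both libraries chose the positions, they are given as a description, and no test was made between the cell types.

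The wt MEFs were labelled wildtype and the βerko MEFs ESR2 -/-, both of strain C57BL/6, and both were kept in high-glucose medium with 10 % FCS and no treatment stated. Reduced representation bisulfite sequencing (RRBS) reads the ends of fragments cut by the enzyme MspI at CCGG, and a cytosine still read as cytosine after bisulfite counts as methylated. Genomic DNA of 3 batches was pooled into 1 library per cell type, so that there were no replicates, and a difference between cultures, cell lines or embryos cannot be told apart from the genotype. The tables hold methylation alone, and the identity of the cells was not checked against marker expression.

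In mammalian cells, a methyl group on CpGs is copied to the new strand at each cell division. Promoters rich in CpGs are mostly kept free of it, and methylation of such a promoter goes along with a silent gene. Many promoters of developmental transcription factors are unmethylated and held silent by Polycomb proteins instead. Bisulfite does not separate methylcytosine from hydroxymethylcytosine, so that a methylation level here includes both.

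Stretches with many hypomethylated promoter positions illustrate how densely they could lie. They are shown as the + strand of NCBIM37 (mm9), with the CpGs of the hypomethylated promoter positions in capitals and with annotated untranslated parts left out. The stretch of Nkx6-2, a homeobox gene of the developing nervous system, lies at chr7:146768233-146768431 with 10 positions. Runx3, a transcription factor of the Runt family, is shown at chr4:134708220-134708369 with 7 positions. An internal promoter of Esrrg, the oestrogen-related receptor γ, is shown at chr1:189475796-189475898, where 18 positions fell on 14 of 18 CpGs. The promoter assigned to 4930548F15Rik is shown at chr13:31902904-31903134, with 23 positions at 20 of 22 CpGs.
Nkx6-2: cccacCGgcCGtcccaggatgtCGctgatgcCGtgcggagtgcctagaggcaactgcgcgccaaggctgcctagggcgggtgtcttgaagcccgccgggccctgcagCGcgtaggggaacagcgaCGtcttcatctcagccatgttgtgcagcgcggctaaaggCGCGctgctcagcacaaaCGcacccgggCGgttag
Runx3: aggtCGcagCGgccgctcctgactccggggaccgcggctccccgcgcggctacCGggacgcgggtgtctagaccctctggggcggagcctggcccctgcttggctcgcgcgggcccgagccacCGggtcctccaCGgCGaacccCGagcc
Esrrg: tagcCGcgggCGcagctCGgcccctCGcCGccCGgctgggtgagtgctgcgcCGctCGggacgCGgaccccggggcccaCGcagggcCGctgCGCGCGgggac
4930548F15Rik: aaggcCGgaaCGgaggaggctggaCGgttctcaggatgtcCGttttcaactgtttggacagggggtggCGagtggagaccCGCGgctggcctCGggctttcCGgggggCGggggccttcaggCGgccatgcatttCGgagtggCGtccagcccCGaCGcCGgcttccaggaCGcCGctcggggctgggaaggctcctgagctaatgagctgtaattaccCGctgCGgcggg

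Most genes had a single position instead, and the most deeply read of these are shown for contrast, together with Dyx1c1, which the study followed up. Glis1, a zinc finger gene, is shown at chr4:107107854-107107914, Ddr1, a collagen receptor, at chr17:35839263-35839318, LOC654469 at chr15:78856307-78856367 and Dyx1c1 at chr9:72806693-72806753. These windows held between 1 and 6 CpGs, of which 1 was a hypomethylated promoter position.
Glis1: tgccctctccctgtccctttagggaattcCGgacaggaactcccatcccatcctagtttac
Ddr1: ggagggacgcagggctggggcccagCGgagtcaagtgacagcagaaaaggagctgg
LOC654469: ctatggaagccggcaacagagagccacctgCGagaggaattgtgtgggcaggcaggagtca
Dyx1c1: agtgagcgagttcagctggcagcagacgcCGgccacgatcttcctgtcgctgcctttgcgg

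The 1637 positions belonged to 1540 CpGs, 97 of which were hypomethylated on both strands, and 798 lay on the + and 839 on the - strand. The median level was 91.7 % in wt MEFs (80.2 to 100 %) and 8.33 % in βerko MEFs (0 to 19.8 %). In wt MEFs 462 positions were methylated in every read, in βerko MEFs 277 positions in none, and 98 positions were both. Close to the thresholds, 320 positions lay between 80 and 85 % in wt and 330 between 15 and 20 % in βerko MEFs. Just outside, among covered positions of promoters from -500 to 100 bp of a GENCODE transcript start, 285 had between 75 and 80 % in wt but less than 20 % in βerko MEFs. Another 260 had more than 80 % in wt and between 20 and 25 % in βerko MEFs.

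Depth differed between the libraries. The positions had a median of 20 reads in wt MEFs (quartiles 11 and 34, at most 208) and of 47 reads in βerko MEFs (quartiles 27 and 70, at most 158). At 1376 positions (84.1 %) the βerko library was the deeper one, and the median ratio of βerko to wt reads was 2.13. Hypomethylated positions outside promoters showed a similar picture, with the βerko library deeper at 83.8 % of them. At the 169 hypermethylated promoter positions, chosen with the thresholds reversed, the βerko library was deeper at 36.1 %, with medians of 26 (wt) and 23 reads (βerko). The part of depth in these choices was not tested, as depth is known here only for differentially methylated positions (DMPs).

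**Figure D1:**
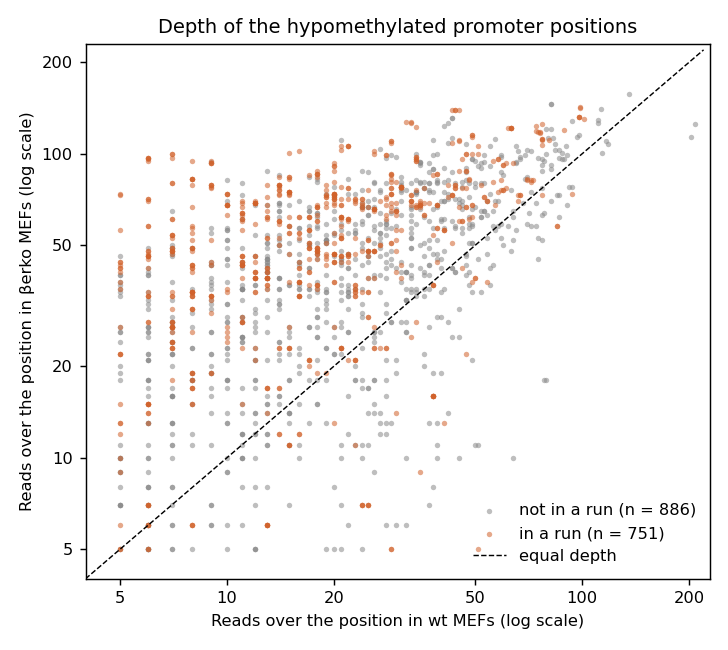
Reads over each of the 1637 hypomethylated promoter positions in wt MEFs (x axis) and βerko MEFs (y axis), both on log scales. Orange points lie in a run of at least 3 positions and grey points do not, and 1376 points lie above the dashed line of equal depth.

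At low depth the levels are coarse. With 5 of 5 reads methylated, the exact 95 % confidence interval starts at 47.8 %, and with 0 of 5 it ends at 52.2 %. Intervals cover counting error only, since PCR reads without molecular identifiers are not independent molecules. Fewer than 10 reads were available at 324 positions in wt and at 90 in βerko MEFs, whereas 757 positions had at least 20 reads in both. The 324 with 5 to 9 reads in wt MEFs had medians of 100 and 6.45 % in wt and βerko MEFs, and the 182 with at least 50 reads had 90.7 and 8.45 %.

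The 3 most deeply read positions among genes with 1 position have narrow intervals. At Glis1, 85.6 % of 208 reads were methylated in wt (exact 95 % confidence interval 80.1 to 90.1 %) and 12.8 % of 125 reads in βerko MEFs (7.5 to 20 %). At Ddr1, the levels were 84.7 % of 111 reads (76.6 to 90.8 %) and 2.33 % of 129 reads (0.482 to 6.65 %). At LOC654469, they were 80.2 % of 136 reads (72.5 to 86.5 %) and 12.7 % of 158 reads (7.91 to 18.9 %). The intervals in wt MEFs reached below 80 % at Ddr1 and LOC654469, so that these positions lie within counting error of the threshold.

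By the authors' annotation, 1059 positions (64.7 %) lay in an exon, 284 (17.4 %) in an intron and 294 (18 %) in neither, and 337 lay in an annotated transcription start region. Against GENCODE transcript starts on NCBIM37, the median distance was 213 bp, with 616 positions upstream and 1021 at or downstream of the nearest start. Promoters drawn from -500 to 100 bp of these starts held 927 of the positions (56.6 %). The other 710, at a median distance of 1030 bp, are promoter positions by the authors' annotation alone. In these GENCODE promoters as a whole, 0.442 % of 245812 covered positions, and 7.12 % of the 15271 with more than 80 % in wt MEFs, met the thresholds and depth.

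The sequence around the positions lay between that of promoters methylated and unmethylated in both cell types. Within 100 bp of a hypomethylated promoter CpG there was a median of 17 CpGs (quartiles 11 and 23). GENCODE promoter CpGs with less than 20 % in both libraries had a median of 23, and those with more than 80 % in both had 8. The GC content was 66.8 % around the hypomethylated promoter CpGs, against 71.8 and 57.9 % for these sets. Hypermethylated promoter CpGs had a median of 8 CpGs within 100 bp and 59.9 % GC. These sets differ in how their promoters were defined, and no test was made.

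Short words were searched within 100 bp on both strands. The AP2 word GCCNNNGGC was found around 26.8 % of the hypomethylated promoter CpGs, around 30.9 % of all covered GENCODE promoter CpGs and around 18.5 % of those with more than 80 % in wt MEFs. For the Sp1 word GGGCGG the shares were 43.3, 62.1 and 25.4 %, for the E-box CAGCTG 11.3, 10.4 and 15.3 %, and for the TATA word TATAAA 2.01, 1.61 and 3.10 %. For each of the 4 words the share at hypomethylated promoter CpGs lay between those of the other sets, and a match is not a bound site.

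The positions were distributed over all autosomes and the X chromosome, with most on chromosome 4 (197), chromosome 2 (176) and chromosome 7 (123), and 55 on chromosome X. Of the 15271 covered GENCODE promoter positions with more than 80 % in wt MEFs, 927 (6.07 %) were hypomethylated promoter positions, and chromosomes 2 (5.80 %) and 7 (4.96 %) lay below this share. On chromosome 4, 152 of 1586 such positions were hypomethylated promoter positions (9.58 %). The share was 8.58 % on chromosome 8, 7.85 % on chromosome 12 and 7.41 % on chromosome X, and it was lowest on chromosome 10 with 2.93 %. Positions of 1 run count separately in these shares, so that a few promoters with many positions can raise them.

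With an assumed read length of 36 bases, every hypomethylated promoter position and 99.8 % of all covered positions lay within a read of an MspI cut on their strand, so that each could be assigned to the reads that start at 1 cut. The positions came from 1116 such read ends, of which 823 held 1 and 293 held several, at most 7. At 551 positions (33.7 %) the cytosine was that of the cut itself, against 39.1 % of all covered positions and 57.4 % of the hypermethylated promoter positions. Positions of 1 read end share molecules and are not independent of each other. Their depth was equal in both libraries at 146 of the 293 read ends with several positions. Within a read end it differed by up to 4 reads in wt and up to 30 in βerko MEFs.

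Within these reads, the other CpGs were often lower in βerko MEFs too, but to a smaller extent. The same read ends covered 2570 other CpG positions. Of these, 1117 (43.5 %) lay between 20 and 80 % in wt and under 20 % in βerko MEFs, and 581 (22.6 %) above 80 % in wt and between 20 and 80 % in βerko MEFs. Another 233 (9.07 %) were below 20 % in both and 126 (4.90 %) above 80 % in both. In 264 read ends a hypomethylated promoter position lay beside a CpG that stayed above 80 % or below 20 % in both libraries. At LOC654469, for instance, the CpG 20 bases away in the same reads was at 15.4 % in wt and 3.85 % in βerko MEFs. At Srms, a Src-related kinase gene, the position was at 90.9 and 2.27 % (77 and 88 reads), while CpGs 12 and 31 bases away were at 6.41 and 5.13 % in wt and at 0 and 1.14 % in βerko MEFs. At Sh3d20, the position was at 98.3 and 18.6 % (59 reads in both), and a CpG 29 bases away was at 100 % in both. Srms and Sh3d20 were chosen after their values were seen.

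For 398 positions the other strand of the same CpG was covered too. There the other strand was lower in βerko MEFs in 387 cases, with medians of 90.8 % in wt and 9.09 % in βerko MEFs, and 194 were hypomethylated promoter positions themselves. These 194 were chosen for such levels, so that the count and the medians are partly given by the choice and are no independent result. The 398 cases belong to 301 CpGs, since the 97 CpGs hypomethylated on both strands count with each strand. In 26 cases the other strand was not lower by 20 percentage points or more. Different reads cover the strands, but the DNA came from the same pools.

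Nearly every position had covered CpGs around it. For 1586 positions at least 1 other CpG was covered within 100 bp (median 9), and 51 positions had none. The mean methylation of these neighbours had a median of 75 % in the wt library and of 15.6 % in the βerko library. It was lower by at least 20 percentage points in βerko MEFs around 1324 positions (83.5 %), and by at least 50 points around 792. Around 262 positions the neighbours were not lower by this much, and around 5 of them they were higher by at least 20 points.

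The neighbours included many hypomethylated promoter positions themselves. Of 7878 distinct neighbouring positions, 1119 (14.2 %) met the thresholds. With the hypomethylated promoter positions left out, the other 6879 neighbours had medians of 53.3 and 13.7 % in wt and βerko MEFs, and 58.5 % of them were lower by at least 20 points. The same holds for 10.4 % of all covered positions and 6.6 % of those in GENCODE promoters. Many of these neighbours lie in the same reads as the position that chose them, so that these shares are no independent result.

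The difference was smaller at larger distances. Other covered positions within 25 bp averaged 59.9 and 25.4 % in wt and βerko MEFs, a difference of -34.5 percentage points (SD 28.7 over 3076 positions). Between 200 and 500 bp the means were 36.9 and 21.3 %, and the difference was -15.6 points (SD 25.4, 6020 positions). Between 1000 and 2000 bp, they were 29.9 and 23.5 % with a difference of -6.43 points (SD 21.5, 5263 positions). The level in βerko MEFs hardly varied with distance, from 21.1 to 25.4 %, whereas that in wt MEFs varied between 29.9 and 59.9 %.

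**Figure D2:**
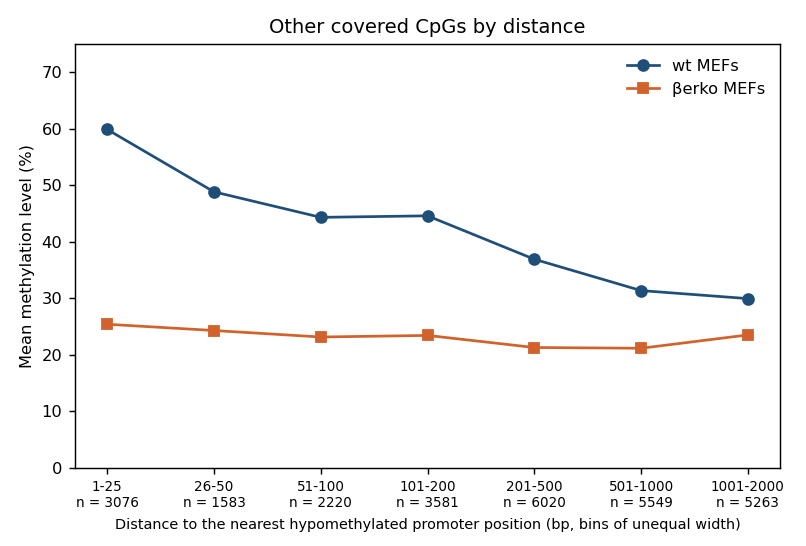
Mean methylation of covered CpG positions in wt (blue) and βerko MEFs (orange) by distance to the nearest hypomethylated promoter position, which are themselves left out. In wt MEFs the mean falls from 59.9 % within 25 bp to 29.9 % beyond 1000 bp, and in βerko MEFs it stays between 21.1 and 25.4 %.

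Runs were formed from at least 3 positions with gaps of at most 100 bp, and 134 runs held 751 positions (45.9 %). A run had a median of 4 positions over 52 bp. The largest had 23 positions and the longest spanned 324 bp, 18 runs had at least 10 positions and 49 had 3. In 37 runs every covered position was a hypomethylated promoter position, and 99 consisted of them to more than 50 %. A single read end accounted for 27 runs, whereas others drew on up to 7 read ends. The hypermethylated promoter positions formed 5 runs with 10.7 % of their positions, and hypomethylated positions outside promoters formed 274 runs with 34.5 %.

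Positions in runs differed from the others in several respects. Their medians in wt and βerko MEFs were 93.3 and 6.06 %, against 90.3 and 9.84 % outside runs. They had fewer reads in wt MEFs (medians 18 and 22) and more in βerko MEFs (55 and 41). CpGs lay more densely around them, with 20 against 14 within 100 bp, and their neighbours differed by a median of -66.9 points against -31.0 points. Neighbours include other hypomethylated promoter positions, which a run requires within 100 bp. The larger difference in runs is thus at least partly given by their definition. In 121 of the 134 runs the βerko library was the deeper one, and the part of depth in the runs was not tested.

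By the promoter entries of the annotation, the positions belonged to 733 named genes, with 107 positions in several of them and 96 positions without a gene name. One position was found in 448 genes (61.1 %), 214 genes had 2 to 4, 48 genes 5 to 9 and 23 genes at least 10. The 20 genes with the most positions held 306 of them (18.7 %). Among these, Btbd11 and Dmrta2 tied at 11 positions with Fzd8 and Ppp1r3b, which the order of symbols left out. Of 14927 genes with a covered GENCODE promoter position, 3.7 % had at least 1 hypomethylated position there.

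**Figure D3:**
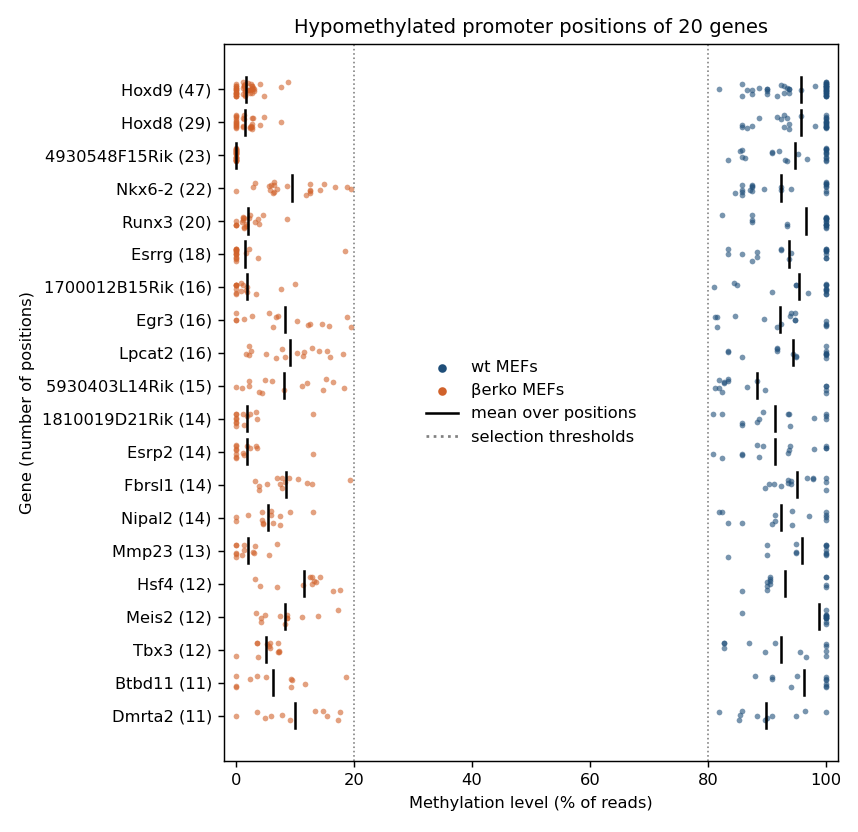
Methylation level of each hypomethylated promoter position in wt (blue) and βerko MEFs (orange) in the 20 genes with the most positions, with the number of positions in brackets, the mean as a black bar and the selection thresholds dotted. Hoxd9, Hoxd8, 4930548F15Rik, Runx3, Esrrg, 1700012B15Rik, Esrp2, 1810019D21Rik and Mmp23 have means below 3 % in βerko MEFs, while Hsf4 lies at 11.6 %.

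Hoxd9, a Hox gene that patterns the limb and the trunk axis, had 47 positions from -46 to 1032 bp of its start, with a mean of 95.8 % in wt against 1.68 % in βerko MEFs. They came from 13 read ends, at medians of 12 reads in the wt library (5 to 53) and of 69 reads in the βerko library (38 to 84). The 24 other covered CpG positions within 500 bp averaged 90.9 and 3.46 %, nearly the same as those chosen. Of 26 others within 1500 bp of the start, 18 were above 80 % in wt and 25 below 20 % in βerko MEFs. Those that met both levels were left out for their depth or for want of a promoter entry, so that the likeness is no independent result. The 29 positions of Hoxd8 are the same cytosines as 29 of these, because the annotation assigns them to promoters of both genes, and they lie between -6981 and -6467 bp of the GENCODE start of Hoxd8.

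Nkx6-2 had 22 positions from -7 to 451 bp of its start, with means of 92.4 and 9.54 %. Among the 86 other covered positions within 1500 bp of the start, 71 were lower by at least 20 points, while 11 stayed above 80 % in both libraries, and all of these lay downstream of the hypomethylated promoter positions. Meis2, a homeobox gene of the TALE class, had 12 positions with 98.8 and 8.34 %, at a median of 7 reads in wt MEFs. Its 5 other covered CpGs were at 89.8 and 15.4 %.

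Runx3 had 20 positions with means of 96.6 and 2.01 %, at medians of 9 and 80 reads. Around its start the βerko library was low throughout, whereas unchosen positions in wt MEFs spread over the whole range. Of 71 other positions within 1500 bp, 48 were below 20 % in βerko MEFs but 6 in wt MEFs. Egr3, an immediate early zinc finger gene, differed again, since its 16 positions lay 1193 to 1352 bp downstream of the start at 92.2 and 8.34 %. Covered positions from 26 to 109 bp downstream of the start were at 3.26 % or less in both libraries, and 27 of 52 other positions within 1500 bp were below 20 % in both libraries.

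**Figure D4:**
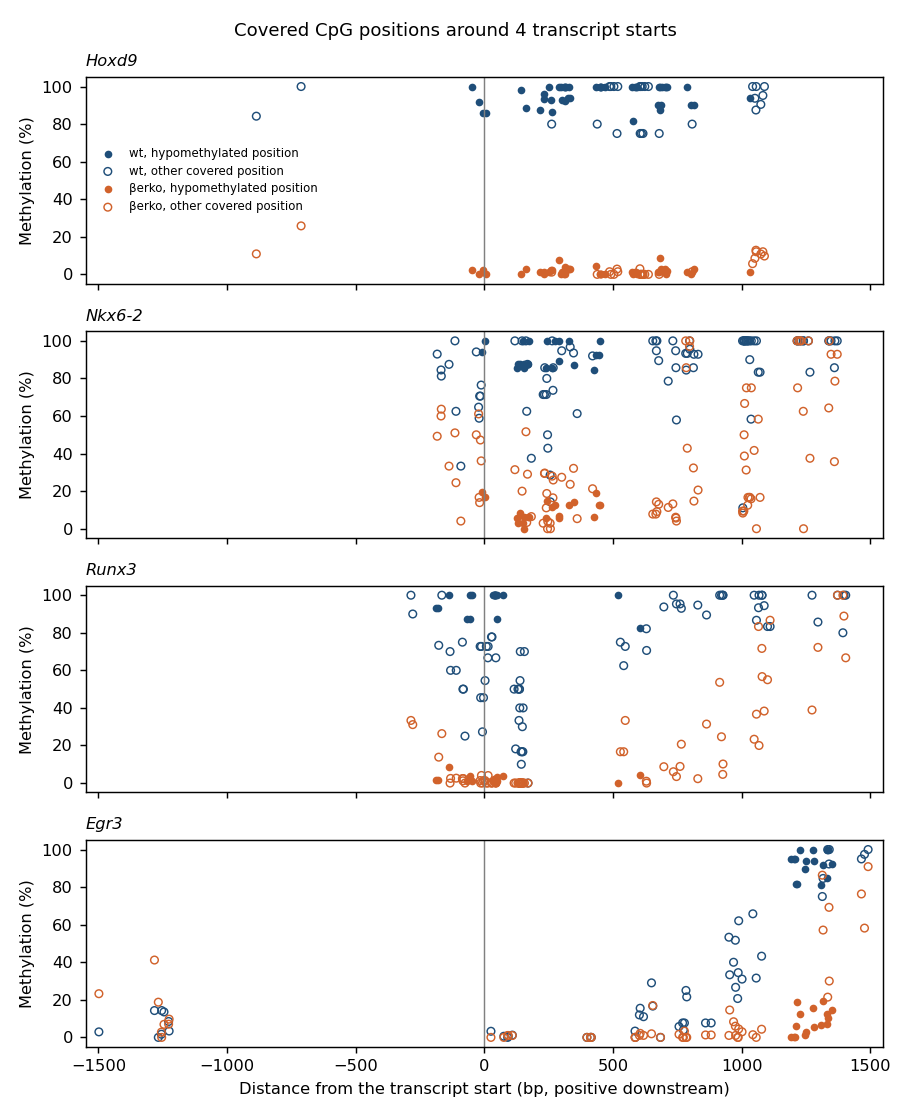
Methylation of every covered CpG position within 1500 bp of the transcript start of Hoxd9, Nkx6-2, Runx3 and Egr3 in wt (blue) and βerko MEFs (orange), by distance from the start in bp. Filled points are hypomethylated promoter positions (47, 22, 20 and 16) and open points are the other covered positions. At Hoxd9 the open points differ much as the filled ones do, and most of them met the same levels. Around the start of Egr3 they stay low.

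Esrrg had 18 positions within 93 bp, with means of 93.8 and 1.44 %. They lie 42226 to 42318 bp downstream of the nearest GENCODE start of the gene. In the GENCODE promoters of Esrrg, 67 covered positions averaged 19.7 % in wt (SD 32.7) and 29.3 % in βerko MEFs (SD 32.2), and 3 of them were lower by at least 20 points.

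Other genes with many positions have varied roles. Lpcat2, an acyltransferase of phospholipid remodelling, had 16 positions with 94.5 and 9.10 %. Esrp2, a splicing factor of epithelial cells, had 14 with 91.4 and 1.89 %, which 1810019D21Rik shared. Mmp23, a matrix metalloproteinase, had 13 with 96.0 and 1.94 %, at a median of 6 reads in wt MEFs. Its positions with 5 reads in wt MEFs have wide intervals, as given above. Tbx3, a T-box gene of limb and mammary development, had 12 with 92.4 and 5.12 %, 1 of them in a promoter more than 10 kb away from the other 11. Hsf4, a heat shock factor of the lens, had 12 with 93.1 and 11.6 %, and Dmrta2, of the DM domain family, 11 with 89.9 and 9.96 %. Among genes without a role given here, 4930548F15Rik had 23, 1700012B15Rik 16, 5930403L14Rik 15, Fbrsl1 and Nipal2 14 each and Btbd11 11, with means of 88.3 to 96.3 % in wt and 0 to 8.40 % in βerko MEFs. The positions of 4930548F15Rik lie 4394 to 4614 bp from the nearest GENCODE start, which is that of Foxc1. Those of 5930403L14Rik lie 386 to 1322 bp from that of Prdm16. A run of 12 positions on chromosome 19 had no gene name, and the nearest GENCODE start, 1778 to 1881 bp away, was that of Adra2a, an adrenergic receptor, which was named after its values were seen.

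The surroundings of a gene's positions differed with their number. Of the CpGs within 500 bp that were not hypomethylated promoter positions, the mean differed by a median of -16.3 percentage points (βerko minus wt) over the 439 genes with 1 position and other CpGs covered. The median difference was -28.8 points in genes with 2 to 4 positions, -40.2 points with 5 to 9 and -53.5 points with at least 10. In genes with 1 position, 254 of 439 means differed by less than 20 points and 42 were higher in βerko MEFs. All 23 genes with at least 10 positions were lower by more than 20 points, from -21.9 points at Egr3 to -93.5 points at 4930548F15Rik. Some genes share positions, as Esrp2 does with 1810019D21Rik and Hoxd8 with Hoxd9, so that the genes are not independent of each other. Some of the other CpGs lie in the same reads as the positions. Genes with more positions also had to have more CpGs covered, and no test was made.

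**Figure D5:**
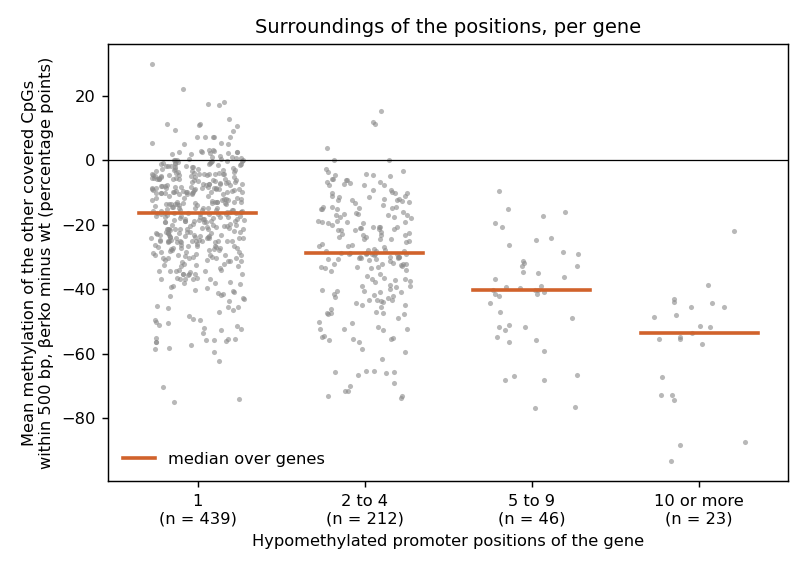
Difference in mean methylation (βerko minus wt, percentage points) of the covered CpGs within 500 bp of a gene's hypomethylated promoter positions, those positions left out, by the number of such positions in the gene. Each grey point is a gene and the orange bars are medians, which go from -16.3 points with 1 position to -53.5 points with at least 10. Genes that share positions are drawn as separate points.

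Transcription factor families of development were looked at as lists that had been drawn up with earlier results of these data known. Of 72 homeobox genes outside the Hox clusters with a covered GENCODE promoter position, 15 had a hypomethylated position there (20.8 %), against 3.7 % of all genes. The counts were 4 of 18 for T-box and Pax genes (22.2 %), 7 of 35 for Fox, Sox and Gata genes (20.0 %) and 3 of 28 for Hox cluster genes (10.7 %). With a median of 16 covered positions per homeobox gene, 21.5 per T-box or Pax gene and 11 per Fox, Sox, Gata or Hox gene, against 13 over all genes, the lists also differed in how many positions could be called.

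In the authors' promoters, the Hox genes with a position were Hoxd9, Hoxd8, Hoxa6, Hoxa3, Hoxa5, Hoxa7 and Hoxc8. All positions of Hoxd8 are also those of Hoxd9, and Hoxa5 and Hoxa7 share the same 3. These genes together held 60 different positions. Hoxa6 had 5 positions upstream of its start with 94.6 and 11.3 %, and Hoxa3 had 4 with 94.1 and 5.28 %. Of the other homeobox genes 23 had a position, among them Barx1 with 7 (87.8 and 16.7 %) and Irx4 with 4 (91.7 and 8.92 %). Of the T-box and Pax genes, Pax5, a B cell factor, had 2 (84.4 and 9.65 %), Tbx22 2 (95.5 and 2 %) and Eomes 1 (94.4 and 13.3 %). The surroundings of Eomes were low in both libraries, with 43 other covered positions at 19.5 and 17.3 %.

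In the authors' promoters, 11 of the Fox, Sox and Gata genes had a position. The authors' annotation is known at DMPs only. Counts by their promoters, here and for the other lists, therefore have no share of covered genes beside them. Sox6 had 3 within 1 read end (92.6 and 1.71 %), Sox3 2 (87.5 and 12.5 %), and Foxe1 and Foxe3 1 each, at 95.8 and 3.33 % and at 83.3 and 18.8 %. The other CpGs around Sox6 were at 15.2 % in wt and 4.93 % in βerko MEFs, so that these 3 positions stood out in wt MEFs from a region low in methylation. Of the bHLH lineage genes, 2 of 32 had a hypomethylated position in a GENCODE promoter (6.25 %), namely Hes2 and Hes3, at a median of 10 covered positions per gene. In the authors' promoters 4 bHLH genes had a position, Hes2 with 2 (90.9 and 10.4 %) and Hes3, Neurog2 and Tal1 with 1 each. At Tal1, a factor of blood formation, the position was at 82.2 % of 90 reads and 4.72 % of 106 reads.

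Lists of other roles are also given beside the 3.7 % of all genes and their median of 13 covered positions. Of the Wnt, TGF-β and hedgehog genes, 6 of 65 had a hypomethylated position in a GENCODE promoter (9.23 %), at a median of 21 covered positions per gene. Fzd8, a Wnt receptor, had 11 positions in the authors' promoters with 94.0 and 8.92 %, 1800 to 2062 bp downstream of its start. Dkk3, a secreted protein of the Dickkopf family, had 3 at its start (93.8 and 8.83 %), and Bmp2 and Wnt3 had 2 each (100 and 11.9 %, 90.2 and 5.00 %). Of 40 nuclear receptors, 3 had a hypomethylated GENCODE promoter position (7.5 %), at a median of 20.5 covered positions. These were Rora, Esr1 and Nr1h2, of which Esr1 and Nr1h2 were named after their values were seen. In the authors' promoters 3 nuclear receptors had a position, which were Esrrg, Rora with both strands of 1 CpG (96.8 and 6.29 %) and Nr5a2 with 1 position (83.3 % of 6 reads and 14.3 % of 42 reads).

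Imprinted genes had a hypomethylated GENCODE promoter position in 4 of 32 cases (12.5 %), at a median of 11 covered positions per gene. Grb10 had 3 in the authors' promoters (86.9 and 14.7 %), and Dlk1, Igf2 and Kcnk9 had 2 each. The other CpGs within 500 bp averaged 43.0 and 36.2 % at Grb10 and 33.3 and 28.8 % at Igf2. At Grb10 this mean joins unlike places. Neighbours within 100 bp were at 77.4 % in wt and at 37.5 and 37.8 % in βerko MEFs around 2 of its positions. Around the remaining position they were at 23.8 and 28.9 %. Germline genes had such a position in 2 of 29 cases (6.90 %), at a median of 10 covered positions. Of these genes, Dazl had 1 position at 83.3 % of 6 reads and 0 % of 10 reads, and Tdrd5 had 1 at 92.9 % of 14 reads and 6.06 % of 33 reads. Fibroblast extracellular matrix genes had 1 of 30 (3.33 %), close to the 3.7 % of all genes, at a median of 8 covered positions. This gene was Col12a1, named after its values were seen, and no gene of the list had a position in the authors' promoters. The 4 clustered protocadherins covered had none.

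Enzymes of DNA methylation and demethylation had 1 of 21 genes with such a position (4.76 %), close to the share of all genes and at a median of 20 covered positions per gene. At Dnmt3a, a de novo methyltransferase, the position at -97 bp of a start was methylated in 83.3 % of 24 reads in wt (exact 95 % confidence interval 62.6 to 95.3 %) and in 2.33 % of 43 reads in βerko MEFs (0.0589 to 12.3 %). Its neighbours were at 20.0 and 2.45 %. At Apobec2, a member of the cytidine deaminase family, both strands of 1 CpG were hypomethylated, at 93.7 and 14.7 % on average, 9548 bp downstream of the nearest start. The 11 other CpGs around it were at 81.9 % in wt and 93.7 % in βerko MEFs, so that this CpG differed in the opposite direction to its surroundings.

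Of 11 genes, which were Esr2 itself and targets that the study followed, 4 had a hypomethylated promoter position. The study took its targets from the DMPs of these same data, some of them for higher methylation in βerko MEFs. This count is thus no independent result. At Dyx1c1, 86.1 % of 36 reads were methylated in wt (exact 95 % confidence interval 70.5 to 95.3 %) and 5.00 % of 20 reads in βerko MEFs (0.127 to 24.9 %). Its 3 covered neighbours were at 92.5 and 71.2 %. At Pitx1, a homeobox gene of the hindlimb, the 2 positions were methylated in 100 % of 11 and of 17 reads in wt and in 13.5 % of 37 and 5.17 % of 58 reads in βerko MEFs, and the 26 other CpGs around them were at 79.8 and 58.4 %. In the GENCODE promoters of Pitx1, 44 covered positions averaged 81.3 % in wt (SD 30.6) and 37.4 % in βerko MEFs (SD 31.2). Of these, 30 were lower by at least 20 points. Pitx1 was followed for a hypermethylated position, and 7 covered positions 2294 to 2677 bp downstream of its start had less than 20 % in wt and more than 80 % in βerko MEFs. Hoxd9 and Esrrg are described above. Hoxa9, Hoxa10, Tnfaip2 and Esr2 had none, nor had Hoxa11, Trim2 and Fstl4, which were added after seeing the data. In the GENCODE promoters of Hoxa9 and Hoxa10, 27 and 25 covered positions averaged 0.0741 and 0.117 % in wt and 12.9 and 21.6 % in βerko MEFs. At Tnfaip2 the 25 covered positions had means of 67.4 % (SD 32) and 69.9 % (SD 29.1). At Esr2, the targeted gene, 5 covered promoter positions were at 3.08 % in wt and 0.334 % in βerko MEFs, and these values say nothing on the deletion itself.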

How the data were processed

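The authors made 1 RRBS library per cell type (wt and βerko MEFs) from pooled DNA of 3 batches. Per the submitters' processing notes, CASAVA 1.4 and the genome build mm9 were used. For mapping, the Genomatix Mining Station served, and for annotation RegionMiner, both in versions not given in the sources used here. The authors deposited the percent methylation of every cytosine covered in both libraries and, for DMPs only, whole counts of reads per library with the annotation. Depth was therefore known at DMPs only, and depth of all other positions was not used here. The deposited classes of methylation were not used. Some stretches of sequence are not reported here.

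Positions were chosen with more than 80 % methylation in wt, less than 20 % in βerko MEFs, at least 5 reads in both libraries and an entry in the promoter fields. These positions and the gene lists were chosen with earlier results of these data known. Each covered position was a CpG cytosine of NCBIM37, except 12 mitochondrial positions that were not looked up. Of 738 gene IDs, 721 were named from the deposited tables, 12 from a RefSeq table of GRCm38.p6 and 5 not at all. Distances and comparison promoters were taken from GENCODE M1. A read end holds the positions within 36 bases, an assumed read length, of the same MspI cut on the same strand. Neighbours were covered positions within 100 bp, the other strand of the same CpG left out.

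Named were the 20 genes with the most positions (ties by symbol), the genes of the 5 largest runs, targets of the study, up to 4 genes of each of 12 lists and the 3 most deeply read genes with 1 position. Single positions have exact 95 % intervals. Alternatives concerned depth, thresholds, promoters, strands, sex chromosomes, runs, neighbours and gene names. Runs, neighbours and read ends were tested on simulated data. Calculations used matplotlib 3.10.9, pysam 0.24.0, SciPy 1.17.1, pandas 2.3.3, NumPy 2.4.6 and Python 3.11.15.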

Additional observations from a re-analysis of the deposited data

How the results depend on the processing

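With 1 library per cell type, no replicate could be left out and no spread between replicates is known. No paired analysis was possible because each group has 1 library and no test was made. Of 56 alternative values for the 6 counts and shares given above, 26 stayed within 1.5 times the count or within the 95 % Wilson interval of the share, which treats positions as independent although those of 1 read end are not, among them every value for autosomes only and for at least 4 reads. With at least 20 reads in both libraries there were 757 positions, 415 genes and 62 runs, with 37.9 % of the positions in runs and 17.8 % of the neighbours meeting the thresholds. With more than 90 % in wt and less than 10 % in βerko MEFs there were 550 positions, 272 genes and 38 runs, and the shares in runs, with lower neighbours and of neighbours meeting the thresholds were 41.3, 89.5 and 12.6 %. With GENCODE promoters there were 1087 positions and 89 runs, and these shares were 41.2, 81.5 and 12 %. At least 10 reads gave 41.9 % in runs and 15.7 % of neighbours, and merged strands 42.2 and 16 %. Requiring 5 positions gave 58 runs with 30.3 % of the positions, and gaps of 50 and 500 bp gave shares of 41.7 and 54.6 %. Neighbours within 50 and 500 bp were lower around 86 and 76.7 % of the positions and met the thresholds in 17.8 and 8.78 % of cases, and those of the same strand met them in 18 %. A fall by at least 40 points was found around 63.1 %. Fewer positions are chosen by construction under stricter settings, and the cause of the other shifts was not tested. The number of genes ranged from 272 to 755.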

Other observations

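Promoters drawn from GENCODE starts held 160 hypomethylated positions of 79 genes that the authors' annotation does not place in a promoter. The largest group was at Obsl1, a gene of a cytoskeletal protein related to obscurin, with 26 positions from -269 to 271 bp of the start. Their means were 92.9 and 3.4 % in wt and βerko MEFs, at medians of 12 and 70 reads. Gm12101 had 11 such positions (89.5 and 9.75 %), and a further 8 at Runx3 (95.2 and 5.64 %) lay beside the 20 positions described above. At Pitx1 there were 6 more (95.8 and 10.6 %), at medians of 33 and 57 reads. Lmo2, a transcriptional cofactor of blood formation, had 5 (92.7 and 8.5 %), at medians of 63 and 91 reads. Obsl1, Gm12101 and Lmo2 were chosen after their values were seen. Which genes are counted with a hypomethylated promoter thus depends on the promoter annotation for these genes.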
